A study of Saccharomyces cerevisiae with 96 samples.

Results

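The genes described here lie on chromosome VIII of the budding yeast Saccharomyces cerevisiae and were selected on measured values. They are the genes whose systematic names start with YHL (left arm) or YHR (right arm), with a mean of at least 10 RPM over all profiles (RPM are reads, counted once per molecule and scaled to the same total in every library), without 27 genes left out by name. The rule gave 211 genes of the 238 tested on this chromosome and of 5129 tested in all, 34 on the left arm and 177 on the right arm. A further 84 genes of the chromosome were under the minimum. The chromosome was singled out because its values were high in wild type strain 9 on both sugars, so the values of that strain are given as a description, without a test. The genes just inside the minimum were DFP4 with 10.5 RPM, YHR140W with 10.8 RPM and RIM4 with 11.1 RPM, and those just outside it were MTC6 with 9.56 RPM, IRE1 with 9.37 RPM and LIN1 with 9.27 RPM. Of the 211 names 206 matched the R64 annotation of the reference strain, and all 206 were placed on chromosome VIII.

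The study grew 12 wild type strains on rich medium with glucose (YPD) or with xylulose (YP-xylulose), and did the same with the population evolved from each strain over 300 generations on YP-xylulose. Per the study's methods YP-xylulose held more xylose than xylulose, and no strain used the xylose during growth. The strains, by their number, were 1 YPS1009, 2 T73, 3 T7, 4 Y12, 5 YJM269, 6 PW5, 7 CLIB215, 8 CLIB324, 9 CBS7960, 10 EC1118, 11 BY4743 and 12 SK1, and all cells were harvested in log phase. The 96 RNA samples, 2 repeats each, are held as 48 profiles, 1 for each strain and condition, so the 12 strains were the replicates and the spread between repeats is unknown. For 17 profiles, wild type 9 on glucose among them, it is not known whether both repeats are held. Each evolved sample was a population and not a single clone, and no DNA was measured.

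A yeast chromosome carries genes of many unrelated functions, so genes that share only a chromosome are not expected to share a regulator. Chromosome VIII holds the copper-binding metallothionein CUP1, the pheromone pathway genes GPA1, STE12 and STE20, the cell wall integrity kinase SLT2, the nutrient-responsive kinase SCH9, and many genes of ribosome assembly and of the mitochondrion. What its genes do share is a centromere, the point at which the spindle holds the chromosome at cell division. Xylulose is a pentose sugar that yeast takes into the pentose phosphate pathway after phosphorylation.

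The centromere CEN8 is shown because it is the element that all 211 genes have in common and the point from which distances are given below. In R64 it spans chromosome VIII 105586 to 105703 on the minus strand, 118 bases, of a chromosome of 562643 bases. It has the 3 elements of a yeast point centromere, with CDEI (10 bases) and CDEIII (25 bases) in capitals and the A/T-rich CDEII (83 bases, 94.0% A or T) between them in lower case, read 5′ to 3′ and taken from the RefSeq sequence of R64.
CEN8: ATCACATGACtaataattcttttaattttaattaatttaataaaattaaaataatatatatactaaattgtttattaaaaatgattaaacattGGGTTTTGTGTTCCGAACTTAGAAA

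Chromosome VIII genes were higher in wild type strain 9, CBS7960, than in the other wild type strains on both sugars. For each profile the shift of the chromosome was taken as the median, over the 211 genes, of the log2 value minus the median of the other 11 profiles of the same condition, less the same median over the 4891 tested genes of the other chromosomes. In wild type 9 the shift was 0.97 on glucose, or 1.96-fold, and 0.81 on xylulose, or 1.76-fold. In the other 22 wild type profiles it lay between -0.16 and 0.03, and in the 24 evolved profiles between -0.14 and 0.11. The SD of the shift over the other 11 wild type strains was 0.057 on glucose and 0.036 on xylulose. Wild type 9 lay apart from every other profile, and no test is given because the genes were chosen for it. In bulk RNA a higher level in all cells and a very high level in some cells cannot be told apart, and a part of chromosome copy number in the shift was not tested, since no DNA was measured.

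**Figure D1:**
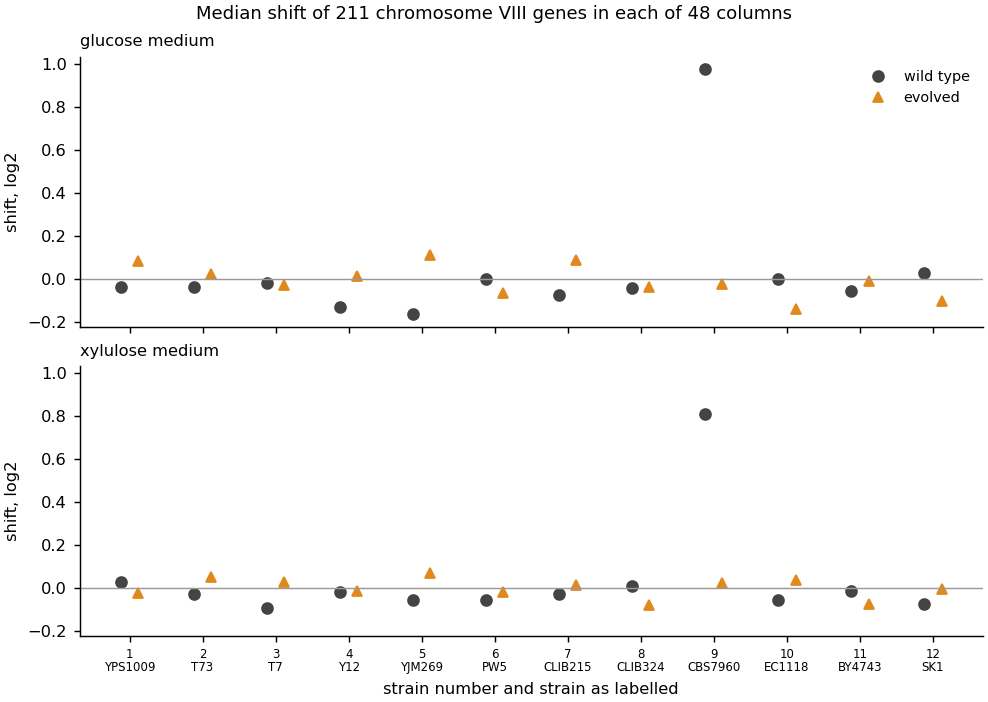
Median log2 shift of the 211 chromosome VIII genes (vertical axis, log2 units relative to the other 11 profiles of the condition) in the wild type (circles) and evolved (triangles) profile of each strain number (horizontal axis), on glucose above and on xylulose below. Wild type 9 lies at 0.97 and 0.81, and all other points lie between -0.16 and 0.11.

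The same was seen gene by gene. In wild type 9 the log2 difference of each gene from the other strains was set against the median difference of genes of other chromosomes. On glucose 188 of the 211 genes lay above this median difference and 23 at or below it. On xylulose it was 194 and 17, and 177 lay above it on both sugars. Genes blank on glucose in wild type 9 and in most other strains, such as RIM4, count as at or below it. Wild type 9 had the highest of the 12 wild type values for 92 genes (43.6%) on glucose, against 6.85% of the genes of other chromosomes. On xylulose this held for 116 genes (55.0%), against 5.09%, and on both sugars for 58 genes (27.5%), against 1.1%. The 211 genes held 4.63% of all reads of wild type 9 on glucose and 4.44% on xylulose. In the other wild type strains this share ran from 2.61% through a median of 3.07% to 4.55% on glucose, and from 2.53% through 2.74% to 2.87% on xylulose. Wild type 9 lay above all other strains on both sugars, with strain 2 next to it on glucose, where CUP1-1 and CUP1-2 stood at 10607 RPM each. Fewer of the genes were blank in wild type 9, 9 on glucose and 3 on xylulose, than in the other strains, where 15 to 63 and 5 to 22 were blank. Blanks also depend on depth. On glucose strain 7, with 63 blanks, had 253323 reads, against 682596 in wild type 9. The share of blanks over all genes of each profile is not given here, so these counts are not a trait of the chromosome.

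The other 15 chromosomes of wild type 9 showed no such shift. With all 238 tested genes of chromosome VIII included, its shift in wild type 9 was 0.91 on glucose and 0.78 on xylulose. The other chromosomes of this strain lay between -0.06 and 0.18 on glucose and between -0.06 and 0.05 on xylulose. Over the 766 other pairs of profile and chromosome the highest shift was 0.39, for chromosome XII in evolved 3 on glucose, and the lowest was -0.99, for chromosome I with 74 tested genes in evolved 12 on glucose.

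**Figure D2:**
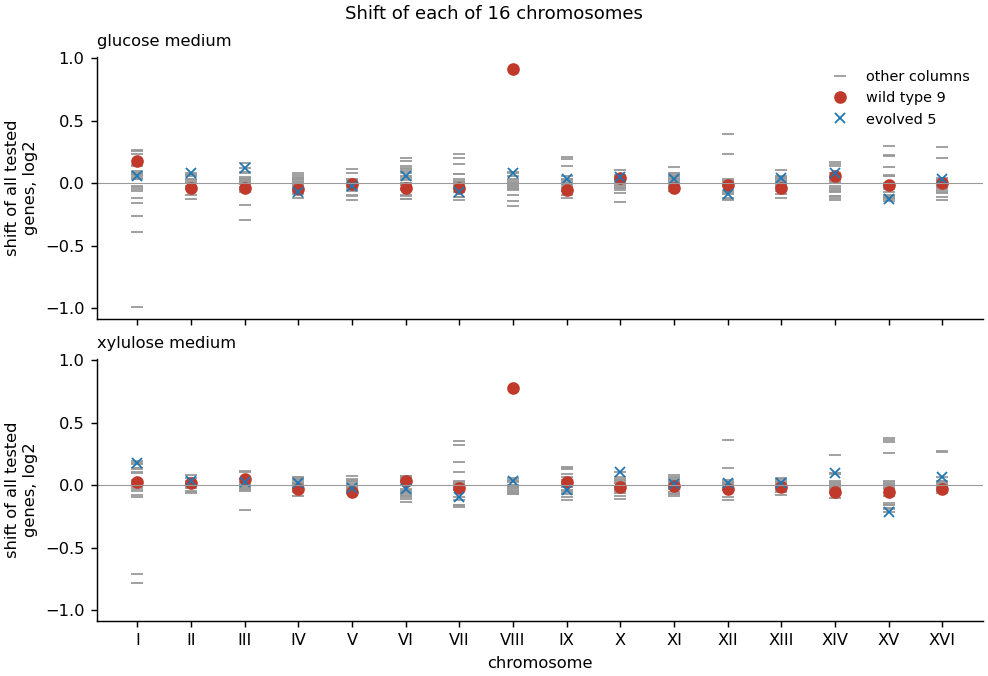
Median log2 shift of all tested genes of each of the 16 chromosomes (horizontal axis), on glucose above and on xylulose below, for wild type 9 (circles), evolved 5 (crosses) and the other profiles (dashes). Chromosome VIII of wild type 9 lies at 0.91 and 0.78, above every other point, while evolved 5 lies among the other profiles at chromosome VIII.

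The higher values ran along the whole chromosome. In wild type 9 the left arm had a shift of 0.84 on glucose and 0.75 on xylulose, and the right arm 0.98 and 0.81. The 206 placed genes were cut, in their order, into 8 stretches of 25 or 26 genes from COS8 near the left end to IMD2 near the right end. The stretch medians ran from 0.74 to 1.24 on glucose and from 0.68 to 1.12 on xylulose, so none of the 8 lay near 0. The stretch from YHR054C to LRP1, which starts within the CUP1 repeat, had medians of 1.12 and 0.68. The stretch from KSP1 to APE4 had medians of 1.08 and 1.12. The same stretches lay between -0.04 and 0.47 on glucose and between -0.19 and 0.33 on xylulose in evolved 5, and between -0.17 and 0.23 and between -0.21 and 0.34 in evolved 9.

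**Figure D3:**
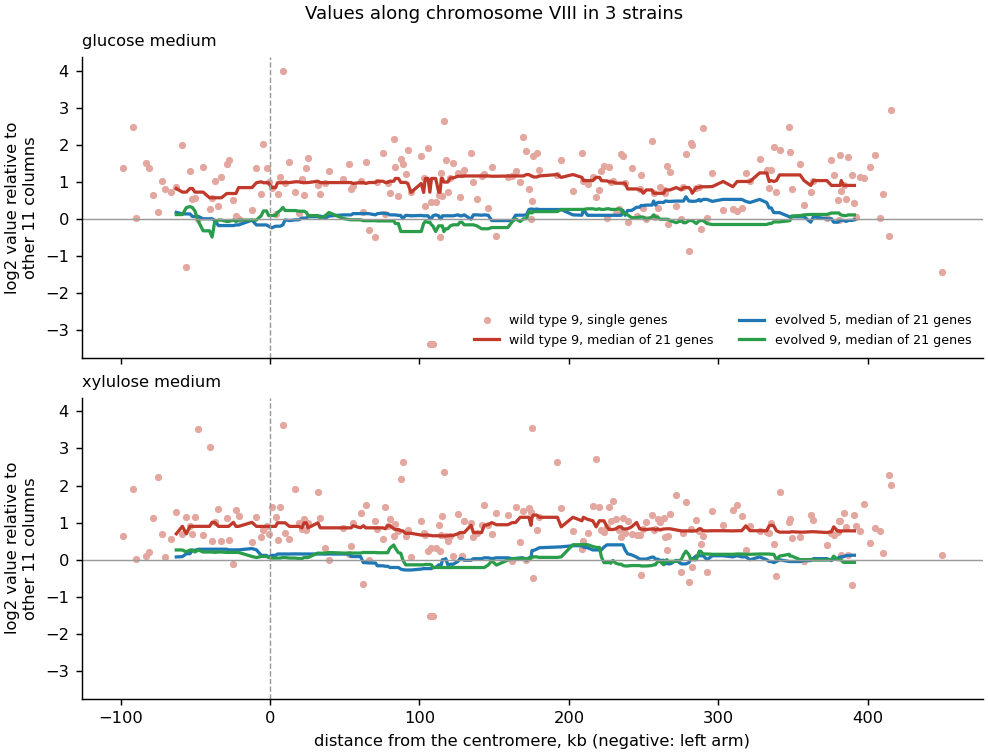
Log2 value relative to the other 11 profiles of the condition (vertical axis), centred on the genes of other chromosomes, against the distance of each gene from CEN8 in kb (horizontal axis, left arm negative), on glucose above and on xylulose below. Points are single genes of wild type 9 and lines are running medians of 21 genes for wild type 9, evolved 5 and evolved 9; the wild type 9 line stays above 0 along both arms and the evolved lines run on both sides of 0.

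Single genes spread widely around this shift. On glucose the quartiles of the 211 genes in wild type 9 were 0.44 and 1.39 and on xylulose 0.54 and 1.15, where the quartiles of the genes of other chromosomes were -0.49 and 0.52, and -0.29 and 0.29. Over the 90 genes with a value in all 24 wild type profiles, split in 3 classes of 30 by their median level in the other strains, the shift was 1.21, 1.26 and 0.82 on glucose from the low to the high class. On xylulose it was 0.81, 0.95 and 0.56. Across these 90 genes the deviations on the 2 sugars had a Pearson r of 0.34, given as a description because both come from the same strain and genes are not independent. The most abundant gene, RPL42B, which encodes a cytosolic ribosomal protein, had 7257 RPM in wild type 9 against 3079 to 4656 RPM in the other strains on glucose, and 5766 against 2629 to 4452 RPM on xylulose, so wild type 9 lay above the range of the other strains on both.

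By role, the shift of wild type 9 was present in most of the 12 lists of genes written for this chromosome, and each value here is a median log2 difference. The 4 cytosolic ribosomal protein genes had 0.94 on glucose and 0.71 on xylulose, and all 4 lay above 0 on both. The 7 genes of mitochondrial translation had 0.96 and 0.92 and the 14 of mitochondrial import and other mitochondrial functions 0.93 and 1.13, with every gene above 0 on both sugars. The 7 genes of signalling, with kinases, the G protein and the transcription factors STE12 and SKN7 among them, had 1.53 and 1.24, again all above 0. The 15 genes of ribosome biogenesis and RNA processing differed between the sugars, with 1.52 and 14 genes above 0 on glucose but 0.12 and 10 genes above 0 on xylulose. Among them NMD3, an export adaptor of the large ribosomal subunit, had 217 RPM in wild type 9 on glucose against 53.4 to 174 RPM in the others, and 76.5 against 45.5 to 211 RPM on xylulose, so it was the highest on glucose and inside the range on xylulose. The 5 genes of metallothionein and stress had 0.47 and 0.64, with 3 of 5 above 0 on each sugar. The 7 genes of amino acids and tRNA charging had 0.82 and 0.49, with 7 and 6 above 0, the 7 of sterol and lipid synthesis 0.62 and 0.78, with all above 0, and the 8 of carbon and redox metabolism 1.19 and 0.79, with 7 above 0. The 8 genes of the transcription machinery had 0.97 and 0.84, with 6 and 8 above 0. In the list of 4 cell wall and septum genes the sugars differed more, with 0.34 and 1.31, and 2 and 3 genes lay above 0. The xylulose value rests in part on WSC4, which was blank there in most other strains. Of the 3 meiosis genes 1 lay above 0 on glucose and all 3, at a median of 1.31, on xylulose. On glucose RIM4 and NDT80 of this list were blank in wild type 9 and in most other strains. Their glucose values are therefore not measured shifts, and the sugars cannot be compared for them. RIM4 had 114 RPM in wild type 9 on xylulose, and its mean of 11.1 RPM reached the minimum of 10 RPM only with that value. Its xylulose value therefore does not count as a sign of the shift. The lists overlap, with STE12 in both the signalling and the transcription list and OPI1 in both the lipid and the transcription list. Each list of this kind was written with earlier results of these data known.

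Among genes with a value in all 24 wild type profiles, those with the largest mean shift in wild type 9 were PAL2 (1.91), an endocytosis factor, CHS7 (1.66), a chaperone for the export of chitin synthase from the endoplasmic reticulum, AIM17 (1.65), a mitochondrial protein, SLT2 (1.504) and SFB3 (1.49), a coat protein of secretory vesicles. CHS7 had 292 RPM on glucose against 46.2 to 164 RPM in the other strains, and 206 against 56.2 to 197 RPM on xylulose. SLT2 had 319 RPM against 40.03 to 145 RPM on glucose, and 245 against 69.6 to 145 RPM on xylulose. For both genes wild type 9 lay above all 11 other strains on both sugars. AIM17 was set apart on xylulose only in part, with 361 RPM against a median of 44.7 and a highest value of 841 RPM, and on glucose it had 371 RPM inside the range of 99.7 to 449 RPM.

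Of the 211 genes 34 did not lie above 0 on both sugars, 11 of them among the 90 with a value in all 24 wild type profiles. CUP1-1 and CUP1-2 were at 359 RPM in wild type 9 on glucose, below all other strains (930 to 10607 RPM), and at 75.3 RPM on xylulose, inside the range of 18.5 to 648 RPM. Their mean shift was -2.45. Among the 90 genes with a value in every wild type profile the next smallest were YHR095W (0.14), NMD3 (0.14) and OYE2 (0.18), an NADPH oxidoreductase with 568 RPM on glucose and 1453 RPM on xylulose against medians of 435 and 1499 RPM in the other strains. Among genes with blanks, DSE2 lay below the median of the other strains on both sugars, with 32.2 RPM on glucose against 58.1 RPM and 66.7 RPM on xylulose against 103 RPM. IMD2 had a shift of -1.43 on glucose and 0.14 on xylulose, and WSC4 of -1.30 and 1.15, so both were low on glucose only. On xylulose WSC4 had 21.9 RPM in wild type 9 and was blank in most other strains, so its 1.15 depends on the floor of 10 RPM.

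The largest deviation from the other strains was that of GPA1, the G protein alpha subunit of the mating pheromone pathway, a gene known to be repressed in diploid cells. In the wild type it had 159.7 RPM in strain 9 and 10.5 RPM in strain 10 on glucose, and 124 RPM in strain 9 and 16.5 RPM in strain 3 on xylulose. It was blank, that is under 10 RPM, in the other 10 strains on each sugar, so no fold is given. In the evolved populations it was blank in 2 of 12 on glucose, with a median of 41.1 RPM and a highest value of 77.8 RPM in evolved 8. On xylulose only evolved 5 with 47.6 RPM and evolved 1 with 14.3 RPM had a value. GPA1 was therefore high in a single wild type strain on both sugars and in most evolved populations on glucose.

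The shift of wild type 9 was not seen in the evolved population of the same number. In evolved 9 the shift was -0.02 on glucose and 0.03 on xylulose, ranks 7 and 5 from the highest of the 12 evolved profiles. Relative to wild type 9 the 211 genes had a median log2 difference of -0.95 in evolved 9 on glucose, with 171 genes lower. On xylulose it was -0.81, with 192 genes lower. Of the genes of other chromosomes 49.97% were lower on glucose and 49.99% on xylulose. The chromosome was singled out for its high values in wild type 9, so counts relative to that strain are a description. Evolved 5 had the highest shift of the 12 evolved populations on both sugars, 0.11 and 0.07, and each was well below the 0.97 and 0.81 of wild type 9. Relative to wild type 9 its genes differed by -0.89 on glucose, with 165 genes lower, and by -0.73 on xylulose, with 182 lower. In evolved 5, 49.99% of the genes of other chromosomes were lower on each sugar. In its left arm the shift of evolved 5 was -0.02 on glucose. A single profile against 11 others gives no test.

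Evolved 5 was compared as well because its profile matched the strain called wild type 9. Over 52 genes outside chromosome VIII that were typical of a strain in the wild type on both sugars, evolved 5 correlated best with wild type 9 (r = 0.885 on glucose and 0.815 on xylulose) and not with wild type 5 (0.0084 and 0.058). Evolved 9 correlated best with wild type 5 (0.778 and 0.961) and not with wild type 9 (0.055 and 0.127). Of the 16 evolved profiles numbered 5 to 12, 14 matched best the wild type number 4 higher or 4 lower, and of the 8 numbered 1 to 4, 7 matched their own. These correlations are across genes and are a description. For chromosome XVI the shift was 0.29 and 0.26 in wild type 10 and 0.20 and 0.27 in evolved 6. For chromosome XIV it was 0.15 and 0.24 in wild type 7 but -0.04 and -0.06 in evolved 11, and 0.03 and 0.09 in evolved 7. Results that pair evolved with wild type profiles are therefore given by the labelled numbers and, where they differ, with numbers 5 to 8 and 9 to 12 exchanged.

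The next comparison asked how expression on xylulose differed from that on glucose within the 12 wild type strains. On xylulose 4 of the 5 metallothionein and stress genes of chromosome VIII were lower, among them the 2 CUP1 copies with equal values, and 6 of the 7 genes of mitochondrial translation were higher. By limma with an adjusted p under 0.05, 64 of the 211 genes were higher (30.3%) against 30.4% of all tested genes, and 20 were lower (9.48%) against 9.42%. The median log2 ratio was 0.29 against 0.31 over all genes, so as a set these genes did as the genome did, and without strain 9 there were 59 higher and 20 lower. With median-of-ratios scaling, which moved the median of all genes from 0.31 to 0.14, 42 were higher and 27 lower. In wild type 9 itself the median log2 ratio was 0.14 for the 211 genes and 0.25 for the genes of other chromosomes.

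The genes that fell most were CUP1-1 and CUP1-2. CUP1-1 ran from 359 RPM in strain 9 through a median of 3170.5 to 10607 RPM in strain 2 on glucose, and from 18.5 RPM in strain 5 through 198 to 648 RPM in strain 11 on xylulose. Every strain was lower on xylulose although the ranges overlapped, and the mean log2 ratio was -4.50 ± 0.42 (SE, n = 12; limma adjusted p = 3.96e-08). RTC3, a stress-induced gene, ran from 303 through 687 to 2349 RPM on glucose and from blank through 70.3 to 829.7 RPM on xylulose. It was lower in 11 of 12 strains, with strain 1 the exception, at -2.78 ± 0.46 (limma adjusted p = 5.47e-05). WSC4, of the WSC family of membrane proteins, was measured in all strains on glucose at a median of 65.3 RPM and was blank in 6 strains on xylulose, where the highest value was 21.9 RPM in strain 9. Its ratio of -2.002 ± 0.31 (limma adjusted p = 3.08e-05) counts blanks as 10 RPM, and it was lower in 12 of 12 strains. IMD2, an IMP dehydrogenase of guanine nucleotide synthesis, fell by 1.39 on the log2 scale in 12 of 12 strains.

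Of the genes that rose, YHI9 changed most. It was blank in 3 strains on glucose, with a median of 24.97 and a highest value of 59.6 RPM in strain 4, and had 103 RPM in strain 10, a median of 245 and 426 RPM in strain 3 on xylulose. The ranges did not overlap, and the ratio was 3.25 ± 0.28 with 12 of 12 strains higher (limma adjusted p = 1.1e-08). It was followed by YHR033W (2.13), CIA2 of cytosolic iron-sulfur protein assembly (1.96), MAS2, a subunit of the mitochondrial processing protease (1.92), and OCA5 (1.74). Wild type 9 had the highest CIA2 value on glucose and the highest OCA5 value on both sugars.

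By role, 6 of the 7 genes of mitochondrial translation rose on xylulose and none fell, with a median log2 ratio of 1.29 against 0.31 over all genes. MRPL6, of the large mitochondrial ribosomal subunit, went from a median of 45.3 RPM on glucose to 156 RPM on xylulose (1.71), and MRP4, of the small subunit, from 58.8 to 127 RPM (1.56). RRF1, the mitochondrial ribosome recycling factor, rose by 1.57 and FYV4, of the small subunit, by 1.29. The seventh gene, MTG2, had a ratio of 0.35. Of the 14 genes of mitochondrial import and other functions 8 rose, MAS2, COX23 and CBP2 among them, and AIM17 fell by 1.76. With median-of-ratios scaling the medians of these lists were 1.11 for mitochondrial translation and 0.50 for the import list.

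Of 4 ribosomal protein genes RPL8A fell (-0.48) and the other 3 gave -0.22 to -0.12. Of 15 genes of ribosome biogenesis and RNA processing UTP9 and the RNA polymerase subunit RPC10 rose. The median of this list, 0.09, turned to -0.09 with median-of-ratios scaling. Of 7 genes of amino acids and tRNA charging STP2, a transcription factor for amino acid permeases (1.60), PUT2 of proline use (1.16) and DED81, the asparaginyl-tRNA synthetase (0.32), rose. Of 7 sterol and lipid genes NCP1, the reductase that serves cytochrome P450 (-0.99), and EPT1 of phospholipid synthesis (-0.88) fell, and OPI1, a repressor of phospholipid genes (0.78), rose. SOL3, the 6-phosphogluconolactonase of the pentose phosphate pathway, rose from a median of 108 RPM to 173 RPM, 1.01 ± 0.26 in 11 of 12 strains (limma adjusted p = 0.00435). GRE3, an aldose reductase that acts on pentoses, had a median of 81.5 RPM on glucose and 71.4 RPM on xylulose. The groups overlapped, and the ratio of 0.34 ± 0.35 did not pass the test (limma adjusted p = 0.461). On xylulose its highest wild type value, 461 RPM, was in strain 9. Of the 8 carbon and redox genes 3 rose and 1 fell, of the 5 stress genes 4 fell, with a median of -2.78 and the CUP1 copies counted separately, and of 7 signalling genes and 8 transcription genes 1 each rose. Of 4 cell wall genes DSE2 rose and WSC4 fell, and of 3 meiosis genes 1 rose.

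In the evolved populations the same ratio was called higher for 53 of the 211 genes (25.1%), against 24.1% of all genes, and lower for 28 (13.3%), against 15.6%. With median-of-ratios scaling 38 were higher and 40 lower, and at a minimum of 50 RPM there were 40 and 12. That minimum leaves fewer than the 211 genes to test, and the share of all genes called is not given for either setting. The median log2 ratio was 0.13 against 0.08 over all genes. OYE2 ran from 347 through 429.6 to 654 RPM on glucose and from 992 through 1809.6 to 2659 RPM on xylulose. These ranges did not overlap, and the ratio was 2.00 ± 0.13 with 12 of 12 populations higher (limma adjusted p = 2.27e-10). COX23, a factor for assembly of cytochrome oxidase (1.95), MRPL6 (1.91), MRP4 (1.803) and RRF1 (1.56) followed, and 6 of the 7 genes of mitochondrial translation rose again, with a median of 1.48. CUP1-1 went from a median of 2659 to 206 RPM (-4.25 ± 0.32, limma adjusted p = 1.08e-09), and RTC3 (-2.88), WSC4 (-2.42) and AIM17 (-1.67) fell as well. Of the other lists 7 of 15 genes of ribosome biogenesis and RNA processing rose and none fell, with a median of 0.35. Of 14 mitochondrial import genes 7 rose and 2 fell, and 3 of 5 stress genes fell. Evolved 9 had the highest RTC3, WSC4 and AIM17 values of the 12 populations on both sugars.

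**Figure D4:**
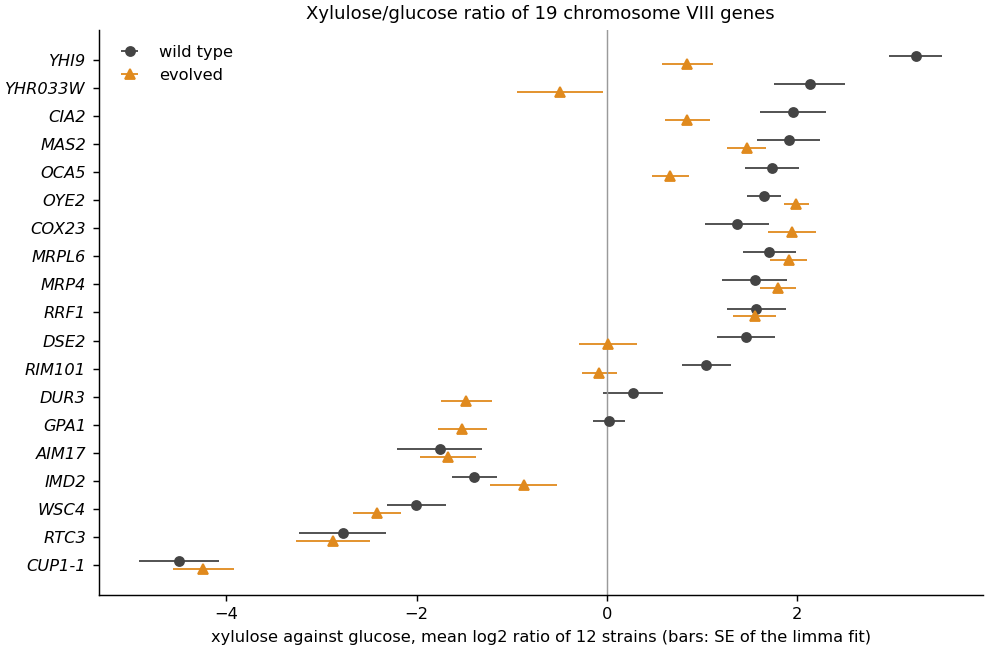
Mean log2 ratio of expression on xylulose against glucose (horizontal axis) for 19 chromosome VIII genes, in the 12 wild type strains (circles) and the 12 evolved populations (triangles), with bars for the SE of the limma fit. Mitochondrial genes such as MRPL6 and MRP4 lie at similar values in both, whereas YHI9 moves from 3.25 to 0.85 and YHR033W from 2.13 to -0.49.

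The change of the sugar ratio with evolution, tested as the difference of the 2 ratios within a strain number, was negative for 11 genes (5.21%), against 4.95% of all genes. It was positive for 0 genes by limma, against 0.487% of all genes. At an unadjusted limma p under 0.05 it was positive for 7 and negative for 32, and 21.8% of all genes passed in either direction. The median was -0.17 against -0.20 over all genes, so the share and the median were again those of the genome. Without the replicate block 7 genes were called, without strain 9 there were 14, and without strain 8 there were 7. With the exchanged numbers 17 were called, 15 negative, which held all 11, and 2 positive, RPL42B (0.62) and RIX1 (0.82). The share of all genes called is not given for these settings. The exchange leaves each mean change as it is and can change only its SE. The 11 genes were YHR033W, YHI9, DUR3, GPA1, DSE2, RIM101, RRM3, YHR140W, SCH9, and RSC30 with YHR054C.

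YHI9 had the smallest adjusted p of these. On xylulose it fell from a wild type median of 245 RPM to 74.97 RPM in the evolved populations, which ran from 36.4 RPM in evolved 8 to 149 RPM in evolved 9. The change of its ratio was -2.40 ± 0.35 and 11 of 12 numbers were lower (limma adjusted p = 0.000162). YHR033W changed by -2.63 ± 0.68, with 10 of 12 numbers lower (limma adjusted p = 0.023), and moved mainly on glucose, from a wild type median of 17.8 RPM to 92.3 RPM in the evolved populations, where values ran from 15.4 to 251 RPM. DUR3, a transporter of urea and polyamines, was blank in 7 wild type strains on glucose and in 1 evolved population, whose median was 30.0 RPM and highest value 105 RPM in evolved 8. On xylulose it was blank in 6 wild type strains, with 86.0 RPM in strain 1, and in 9 evolved populations, and the change was -1.75 ± 0.36 (limma adjusted p = 0.00435).

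GPA1 changed by -1.54 ± 0.31 (limma adjusted p = 0.00366), which rests on the glucose values of the evolved populations given above. DSE2, a daughter-cell protein that loosens the septum, had medians of 46.3 and 99.4 RPM on glucose and xylulose in the wild type and 106 and 90.4 RPM in the evolved populations (-1.45 ± 0.35, limma adjusted p = 0.014). For SCH9 the wild type ratio of 1.60 went to 0.43. For DUR3 and GPA1 many blanks, in wild type and evolved profiles alike, entered at the floor of 10 RPM, so the fitted sizes depend on the floor and can be too large or too small.

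Evolved and wild type profiles were then compared on each sugar. On xylulose 2 of the 211 genes were lower by limma (0.948%), against 0.858% of all genes, and 0 were higher, as among all genes (0.0%). At an unadjusted limma p under 0.05, 5 were higher and 28 lower, and 13.6% of all genes passed in either direction. YHI9 was lower by -1.63 ± 0.25 in 11 of 12 numbers (limma adjusted p = 0.0192). RIM101, a repressor in the response to alkaline pH, ran from 104 through 141 to 259 RPM in the wild type and from 55.0 through 88.8 to 117 RPM after evolution. The ranges overlapped slightly and all 12 numbers were lower, by -0.71 ± 0.13 (limma adjusted p = 0.021). No call was left without strain 1, 3, 4 or 8, or when no filter on low genes was set, and 1 was left without strain 2 or 7. With the exchanged numbers 9 genes were called, 7 lower, with YHI9 and RIM101 among them, and 2 higher, COX23 (0.50) and OYE2 (0.42). The share of all genes called with the exchanged numbers is not given here.

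On glucose 5 genes were higher in the evolved populations by limma (2.37%), against 2.16% of all genes, and 0 were lower, against 0.0585%. At an unadjusted limma p under 0.05, 20 were higher and 7 lower, and 16.4% of all genes passed in either direction. DSE2 rose by 1.26 ± 0.30 in 12 of 12 numbers (limma adjusted p = 0.0208) and DUR3 by 1.16 ± 0.28 in 11 (limma adjusted p = 0.0224). YHR138C, related to a proteinase inhibitor of the vacuole, went from a median of 66.1 to 179 RPM (1.14 ± 0.25, limma adjusted p = 0.0137). NDT80, the transcription factor of mid-meiosis, was blank in 7 wild type strains and in 2 evolved populations, with medians of under 10 and 32.6 RPM, and a highest value of 123 RPM in evolved 8 (1.07 ± 0.28, limma adjusted p = 0.0458). The fifth was YHR033W (1.97 ± 0.51, limma adjusted p = 0.0386), which was higher in only 9 of 12 numbers. Without the replicate block 3 genes were called, without strain 6 or 10 there was 1, without strain 2 or 8 there were 2, and without strain 3 there were 3. With the exchanged numbers 5 genes were called, 4 of them the same. NDT80 then no longer passed (1.07 ± 0.33, limma adjusted p = 0.0703), and GPA1 did (1.41 ± 0.33, limma adjusted p = 0.0138), against an adjusted p of 0.0559 by limma with the labelled numbers.

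The chromosome as a whole lay a little below the genome in the evolved against wild type ratio with strain number 9 included, and close to it without. The median evolved against wild type log2 ratio of the 211 genes was 0.09 on glucose and -0.09 on xylulose, below the 0.17 and -0.02 of all tested genes. Without strain number 9 it was 0.16 against 0.17 on glucose and -0.04 against -0.03 on xylulose.

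Levels differed between strains by as much as on other chromosomes. The SD between strains, averaged over the 4 conditions, had a median of 0.59 log2 units over the 211 genes and 0.58 over the other tested genes. It was largest for IMD2 (1.77), RTC3 (1.37), CUP1-1 and CUP1-2 (1.35 each) and YHR033W (1.22). On glucose wild type IMD2 ran from 13.9 RPM in strain 3 through a median of 203 to 1133 RPM in strain 7, and strain 7 was also the highest on xylulose with 442 RPM. Among the evolved populations evolved 11 was the highest on both sugars, with 458 and 569.6 RPM, while evolved 7 had 104 and 68.1 RPM. Over the 52 strain-typical genes evolved 11 correlated best with wild type 7 (r = 0.487 on glucose and 0.804 on xylulose). Evolved 7 correlated best with wild type 11 (0.711 and 0.957). Equal numbers may therefore not stand for the same strain in these IMD2 values. On xylulose wild type RTC3 was high in strain 1 (829.7 RPM) and strain 9 (759 RPM) and between blank and 327 RPM in the other 10 strains.

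**Figure D5:**
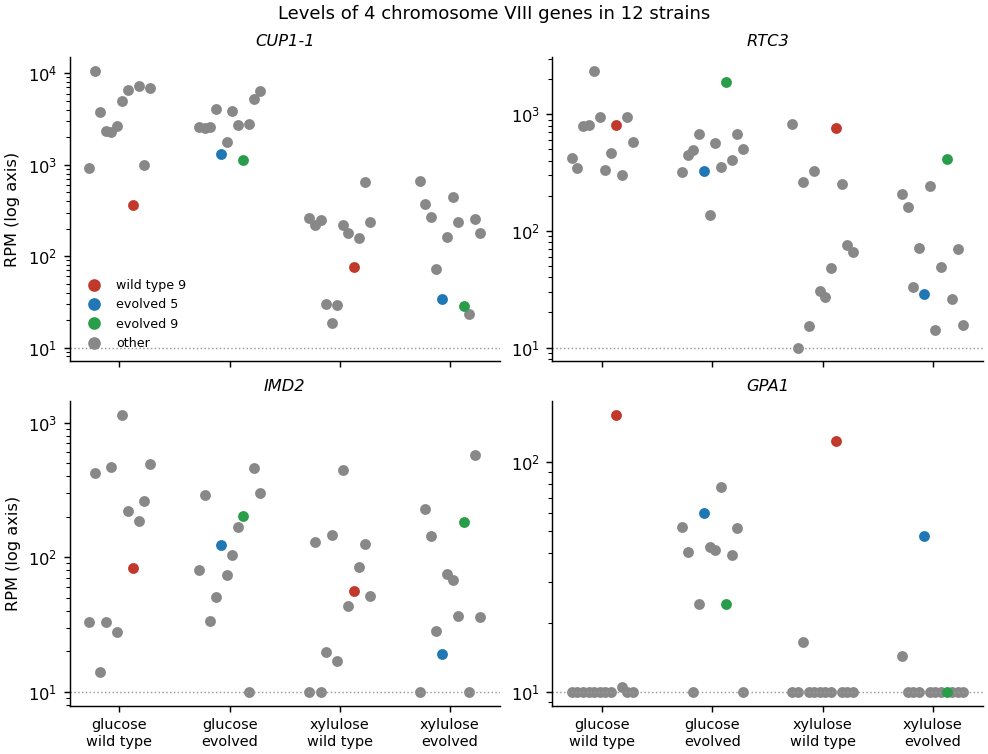
RPM on a log axis (vertical) of CUP1-1, RTC3, IMD2 and GPA1 in the 12 strains of each of the 4 conditions (horizontal axis, strains 1 to 12 from left to right within a condition), with wild type 9, evolved 5 and evolved 9 coloured and the floor of 10 RPM dotted. GPA1 lies on the floor in 10 of 12 wild type strains on each sugar and at 159.7 and 124 RPM in wild type 9, and CUP1-1 of wild type 9 on glucose lies below the other strains.

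Values of near-identical genes are uncertain, because reads of 50 bases cannot always be given to a single copy. CUP1-1 (chromosome VIII 212535 to 212720, R64) and CUP1-2 (214533 to 214718) have coding sequences of 186 bases that are 100% identical, and their values were equal in all 48 profiles. RSC30, a subunit of the RSC chromatin remodeller, and YHR054C, which lies between the CUP1 copies, were also equal or both blank in all 48 profiles and count as a single measurement among the calls above. The coding sequences of DOG1 and DOG2, phosphatases of 2-deoxyglucose phosphate, were 89.5% identical over 741 bases. Ribosomal protein genes such as RPL8A and RPL42B have close copies on other chromosomes.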

How the data were processed

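RNA of 96 samples was sequenced by the authors, mapped to the reference genome R64 with Bowtie, freed of rRNA reads, corrected for PCR copies by UMI and scaled to a common total. The deposited values are log2 RPM, averaged over 2 repeats per the study's methods, for 6701 genes in 48 profiles, and values under 10 RPM are blank (84458 cells, 8.57% of those of the 211 genes). Low values (up to 60 RPM) of 17 profiles lay on multiples of a single step within 0.004 RPM, which gives 253323 to 1114024 reads, and 682596 in wild type 9 on glucose. A mean of 2 repeats scaled separately would not in general lie on a single step. Whether these 17 profiles hold both repeats is therefore unknown. At the median of 680934 the floor stands for 6.81 reads, so values near it are imprecise, and the depth of the other 31 profiles is unknown.

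Blanks were set to 10 RPM. Genes whose mean reached 10 RPM (blanks as 0) were tested on the log2 differences of the 12 pairs with limma 3.58.1 under R 4.3.3 (lmFit, eBayes with a trend on the mean level), with Benjamini-Hochberg adjustment over 5129 genes. Samples were paired by strain number, which the labels tie to the same strain. The correlation of strain-typical genes outside chromosome VIII was the check of this pairing. The fit was tested on simulated data. Python 3.11.15 was used for the shift.

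Genes were named by rule, in each limma comparison the 5 largest rises and falls past an adjusted p of 0.05 with the same sign in 10 of 12 numbers, up to 4 of each of 12 role lists, the 5 largest and smallest mean shifts in wild type 9, the 5 largest SDs between strains, and GRE3, SOL3 and CUP1. Other genes named were chosen after their values were seen. The genes and lists were chosen with earlier results of these data known. Alternatives were other pseudocounts, filters, scaling and pairing, and each strain left out. The single repeats were not analysed here.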

Additional observations from a re-analysis of the deposited data

Results flagged for a closer look

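For 11 chromosome VIII genes the xylulose/glucose ratio differed between the wild type and the evolved populations by limma's test of the difference itself. All 11 ratios were lower in the evolved populations, 5.21% of the chromosome VIII genes against 4.95% of all genes tested, and RSC30 and YHR054C among them are a single measurement. The 5 largest differences shared in sign by 10 or more of 12 strain numbers were those of YHR033W (-2.63), YHI9 (-2.40), DUR3 (-1.75), GPA1 (-1.54) and DSE2 (-1.45). All 11 were also called with evolved numbers 5 to 8 and 9 to 12 exchanged, which leaves each mean difference as it is and can change only its SE.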

How the results depend on the processing

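The settings of the evolved 5 and evolved 9 shifts were chosen after seeing the data. The shift of wild type 9 was 0.91 on glucose with every tested chromosome VIII gene or with the mean of the other profiles, and 0.84 in the left arm. On xylulose it was 0.75 with genes valued in every profile, 0.86 with the mean and 0.75 in the left arm. Without centring, evolved 5 had 0.21 on glucose and 0.18 on xylulose, and evolved 9 had 0.18 on xylulose. In the left arm evolved 5 had -0.016 on glucose and evolved 9 had 0.20 on xylulose, and with genes valued in every profile evolved 9 had -0.075.

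For the sugar ratio of the evolved populations, 52 genes were called at a minimum of 50 RPM. For the change of the ratio the counts were 7 with a pseudocount of 1, 6 with no filter, 5 at 50 RPM and 7 with no replicate block. They were 17 (2 higher and 15 lower) with the numbers exchanged, and 7 to 14 with a strain left out. For evolved against wild type on xylulose they were 0 with no filter, 9 (2 higher and 7 lower) with the numbers exchanged, and 0 to 3 with a strain left out. On glucose they were 3 with a pseudocount of 1, 1 with no filter, 2 at 50 RPM, 3 with no replicate block, and 1 to 6 with a strain left out. The block moved no other count by more than 1.5 times. A minimum of 50 RPM leaves fewer genes to test. For the counts under alternative settings, here and above, the share of all genes called is not given, so they are not a trait of the chromosome. The causes were not tested.

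Over 71 changes of named genes under all alternatives, 1169 of 1274 values kept their direction and their side of the threshold, 85 lost the call, 17 gained it and 3 turned direction. MUP3 went from -0.29 to 0.0046 with a pseudocount of 1, SLT2 ranged from -0.13 to 0.0067 and GRE3 from -0.0015 to 0.51 with a strain left out. Depth limits values near the floor of 10 RPM.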
